A study of Mus musculus with 24 samples.

Results

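Lysine is read by 2 kinds of nuclear tRNA in mouse, named here by the DNA form of their anticodon: LysTTT, which reads the codon AAA and, through wobble pairing, AAG, and LysCTT, which reads AAG. LysTTT carries a modified, thiolated uridine at the wobble position, and its human counterpart is known as the primer that retroviruses such as HIV-1 use for reverse transcription. Members were all rows of the deposited tables whose tRNA name ended in -LysTTT or -LysCTT. These were 11 LysTTT and 19 LysCTT genes, together 30 of 435 tRNA genes and of 53900 rows in the tables of crosslinked and immunoprecipitated RNA, and 33 and 57 of 1305 rows of tRNA fragments, since each gene had a row for each of 3 kinds of fragment (tRF3a, tRF3b and tRF5). tRF5 and tRF3 are the usual names for fragments from the 5′ and the 3′ part of a tRNA, and what sets tRF3a apart from tRF3b is not given in the sources used here.

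The series profiled mouse embryonic stem cells grown with leukemia inhibitory factor, CHIR99021 (a GSK3 inhibitor, 3 µM) and PD0325901 (a MEK inhibitor, 1 µM), and asked which RNAs TET2 binds, which carry 5-hydroxymethylcytosine (hm5C), and how tRNA fragments change without Tet2. TET2 is an enzyme that turns 5-methylcytosine of DNA and RNA into hm5C by oxidation. For crosslinking and immunoprecipitation (CLIP), E14 cells carrying His- and HA-tagged TET2 (strain label E14; Tet2HA-His) were pulsed with 4-thiouridine (500 µM, 4 hours) and irradiated with UVB (400 mJ/cm2), and clones 65 and 75 each gave 2 TET2 CLIP and 2 input libraries. The groups of the hm5C RNA immunoprecipitation (RIP) were 2 hm5C RIP and 2 input libraries of untreated cells of strain B6;129. Small RNA of 14 to 38 nt came from untreated cells labelled B6; 129, with 3 WT and 3 Tet2 KO libraries in experiment 1 and 3 E14 and 3 Tet2 KO libraries of another set in experiment 2. The first experiment used a TruSeq kit and the second an NEBNext kit, so kit, control cells and knockout set cannot be told apart between experiments. The labels name neither the Tet2 allele nor how many lines the knockout replicates came from.

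Total counts ranged from 913002 to 4729463 in CLIP inputs, from 221060 to 453944 in TET2 CLIP, from 4641963 to 4889943 in RIP inputs and from 1564014 to 2100187 in hm5C RIP. The fragment table held only tRNA-derived counts, 96070 to 173450 per library, so the depth of the small RNA libraries is unknown. All 12 listed markers of pluripotent cells exceeded 1 CPM (counts scaled to a common library size) in CLIP input (1479 to 1939 CPM summed), beside 4 of 5 trophoblast markers (156 to 464 CPM summed, with Gata3 the highest), 5 of 6 fibroblast markers (39.0 to 49.7 CPM) and 3 of 5 endoderm markers (7.91 to 13.0 CPM), and their part in the results was not tested. In the RIP inputs 11 of 12 pluripotency markers exceeded 1 CPM, beside 1 of 6 fibroblast, 1 of 5 endoderm and 0 of 5 trophoblast markers. No tRNA sequences are shown, and rows keep the names of the deposited tables.

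Both lysine tRNAs were recovered with TET2 above input, LysTTT by more than LysCTT. Summed over its 11 genes, LysTTT had 10 and 8 counts in the inputs of clone 65 and 17 and 31 in its TET2 CLIP libraries, which were more than 10 times shallower. In clone 75 it had 1 and 8 counts in the inputs and 16 and 10 in TET2 CLIP. LysCTT, summed over 19 genes, had 129 and 204 counts in input and 51 and 44 in TET2 CLIP of clone 65, and 22 and 43 against 51 and 21 in clone 75. In CPM by library size alone, LysTTT lay between 1.10 and 3.51 in the 4 inputs and between 35.2 and 138.8 in the 4 TET2 CLIP libraries, while LysCTT lay between 18.9 and 43.6 and between 82.4 and 230.7. Neither tRNA overlapped between input and TET2 CLIP, and the share of other features without overlap was not counted.

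On the summed counts, edgeR's quasi-likelihood test gave log2 changes of 4.71 (SE 0.40, adjusted p 9.65e-11) for LysTTT and 2.44 (SE 0.19, adjusted p 1.05e-11) for LysCTT over both clones. Of all features in that fit, 8.66% were called higher, 7.93% in clone 65 and 5.89% in clone 75. LysTTT, scarce in every input, passed the count filter only through TET2 CLIP, so its change, adjusted p and rank only describe this sum. Isoacceptors are the groups of tRNA genes that share an anticodon. Among the 37 that passed the filter, LysTTT ranked 2nd from the highest, after ArgCCT at 4.90. LysCTT ranked 27th, below the isoacceptor median of 3.02. LysTTT changed by 5.88 in clone 65 and 3.54 in clone 75, LysCTT by 2.72 and 2.16, and the clones did not differ past the threshold (LysTTT -2.34, adjusted p 0.186; LysCTT -0.56, adjusted p 0.499), as they did for 2.58% of features.

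The share of LysTTT among all lysine tRNA counts does not depend on how libraries are scaled. It was 7.19% and 3.77% in the inputs of clone 65, 4.35% and 15.7% in those of clone 75, 25.0% and 41.3% in TET2 CLIP of clone 65 and 23.9% and 32.3% in TET2 CLIP of clone 75. Every TET2 CLIP library lay above every input, although the exact 95% binomial intervals, which cover counting error only, overlapped within clone 75. The log2 ratio of LysTTT to LysCTT went from -3.62 ± 0.93 to -1.18 ± 0.53 (SD, n = 4 each), a difference of 2.44. An exact two-sided permutation test over all 8 libraries gave p = 0.0286, the smallest it can give, and 0.18 after Benjamini-Hochberg adjustment over the 12 ratio and share tests of lysine tRNAs. An exact permutation within clones gave p = 0.0556, also the smallest possible. The difference was 3.08 within clone 65 and 1.79 within clone 75.

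**Figure D1:**
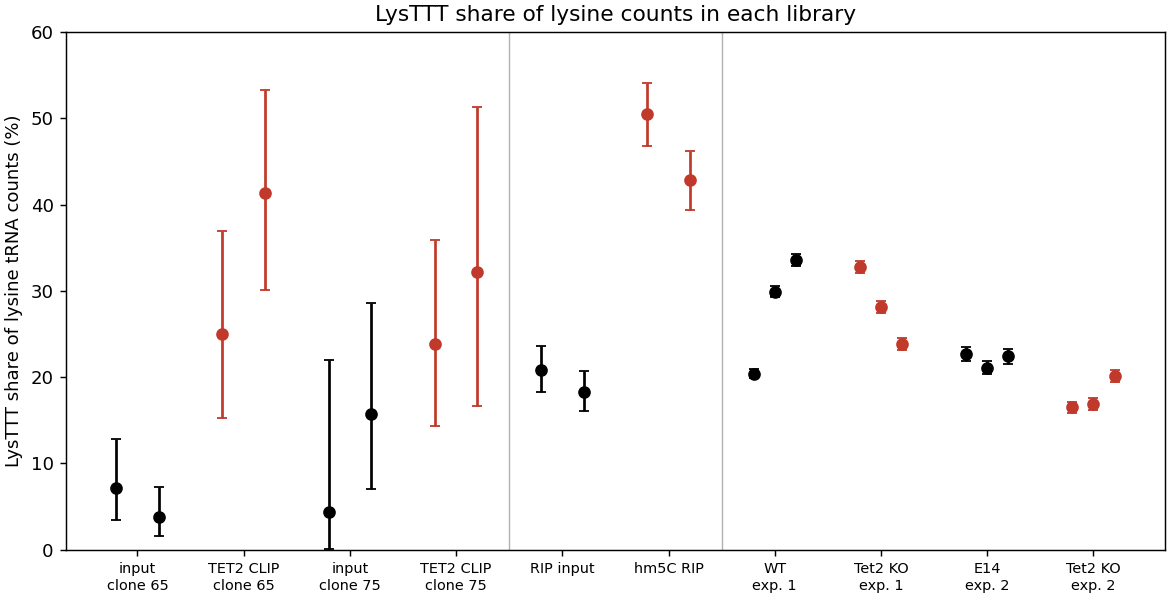
Share of LysTTT among lysine tRNA counts (vertical axis, percent) in each library (points) of each group (horizontal axis), with exact 95% binomial intervals. Black points are inputs and control cells and red points are immunoprecipitations and knockouts. TET2 CLIP (23.9% to 41.3%) and hm5C RIP (42.8% and 50.5%) lay above their inputs. The small RNA libraries overlapped in experiment 1, and in experiment 2 the knockout (16.5% to 20.1%) lay below E14 (21.1% to 22.7%).

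Few of the single genes were deep enough to test. Only 3 LysTTT and 3 LysCTT genes passed the count filter in CLIP, and since a gene scarce in input passes only where TET2 CLIP is high, their changes describe these genes alone. All 6 were called higher over both clones, beside 8.99% of all rows. chr13.tRNA83-LysTTT had 1, 0, 0 and 1 counts in the inputs and 3, 11, 3 and 5 in TET2 CLIP, a ratio of library shares of 104 with an exact counting interval of 25.5 to 910. Its fitted log2 change was 6.17. chr7.tRNA1280-LysTTT had 12 counts in the inputs and 18 in TET2 CLIP and changed by 3.78 (SE 0.65), and chr13.tRNA1012-LysTTT had 11 and 17 and changed by 3.90 (SE 0.78). For the latter, 1 TET2 CLIP library of clone 75 had 0 counts and the other, replicate 1, had 6; without replicate 1 its log2 value was 0.40 and its call was lost, and without input replicate 2 of clone 75 it was 5.69. In clone 75 alone, 1 of 3 LysTTT and 3 of 3 LysCTT genes were called (6.22% of all rows), against 3 and 3 in clone 65 (8.21%). Single libraries decided these counts: without input replicate 2 of the clone they were 0 LysTTT and 0 LysCTT genes in clone 75 and 1 LysTTT gene in clone 65, only 1 LysCTT gene was called in clone 75 without its TET2 CLIP replicate 1, and the LysTTT call of clone 75 was lost in 6 of the 8 fits that left out a library.

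The LysCTT genes differed among themselves. chr17.tRNA999-LysCTT held most LysCTT counts of the inputs, 105 and 157 in clone 65 and 15 and 31 in clone 75, against 26 and 16 and 20 and 9 in TET2 CLIP. It changed by 1.62 (SE 0.27, edgeR adjusted p 3.16e-05). chr12.tRNA796-LysCTT went from 67 to 49 counts, a log2 change of 3.15 (SE 0.41). chr16.tRNA267-LysCTT was scarce in input, with 4, 4, 1 and 3 counts, and reached 12, 6, 19 and 7 in TET2 CLIP, or 5.11 in log2 (SE 0.51, edgeR adjusted p 2.82e-09). That value lay above those of chr7.tRNA1280-LysTTT and chr13.tRNA1012-LysTTT, so the anticodon did not order the estimates of the single genes. A further 12 LysCTT and 5 LysTTT genes had 0 counts in all 8 CLIP libraries.

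In hm5C RIP, LysTTT rose and LysCTT did not change past the threshold. LysTTT had 196 and 204 counts in the inputs and 371 and 355 in hm5C RIP, and LysCTT 744 and 912 in the inputs and 364 and 474 in hm5C RIP. The hm5C RIP libraries were shallower, and in CPM by library size alone LysTTT went from 42.2 and 41.7 to 237 and 169, and LysCTT from 160 and 187 to 233 and 226. In the fit, LysTTT changed by 1.91 (SE 0.26, edgeR adjusted p 4.98e-05), 2nd of 44 isoacceptors, and LysCTT by 0.04 (SE 0.23, adjusted p 0.887), 18th, beside an isoacceptor median of -0.33. Without single libraries the LysCTT value ran from -0.22 to 0.29, so it took either sign. Of all features in that fit, 32.6% were called higher.

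The scaling of the RIP libraries bears on the level of LysCTT. Acsl6, which encodes an acyl-CoA synthetase, took 55.2% and 60.6% of all hm5C RIP counts, against 0.255% and 0.167% of the inputs. Without it and with the same scaling, LysCTT had a log2 value of 0.05. Without it and with library size as the only scaling, LysCTT changed by 1.68 (edgeR adjusted p 6.69e-06), while the median of all rows moved from 0.15 to 1.99, so that LysCTT lay below that median under this scaling. The share of LysTTT among lysine counts is untouched by such scaling and went from 20.9% and 18.3% to 50.5% and 42.8%, with no overlap of the intervals. The log2 ratio of LysTTT to LysCTT went from -2.04 ± 0.17 to -0.19 ± 0.31 (SD, n = 2 each), a difference of 1.85 with p = 0.333 (exact two-sided permutation, adjusted 0.395), the smallest value 2 against 2 libraries can give.

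**Figure D2:**
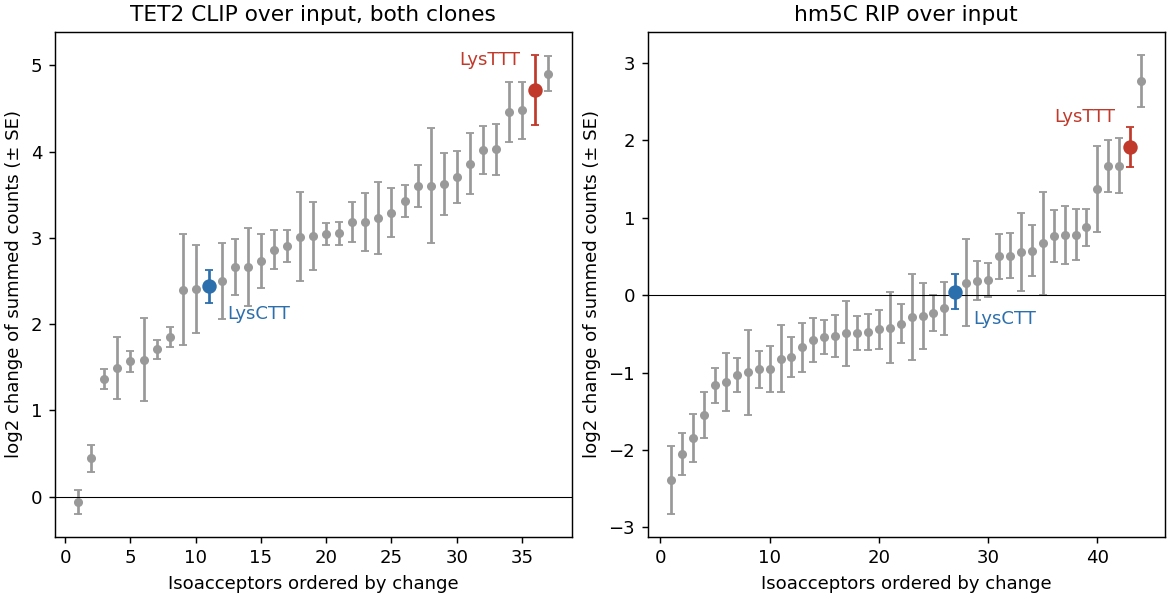
Log2 change of counts summed over the genes of an isoacceptor (vertical axis, ± SE from the edgeR fit) for each isoacceptor, ordered from lowest to highest (horizontal axis), in TET2 CLIP over both clones (left) and hm5C RIP (right). Among the isoacceptors that passed the count filter, LysTTT (red, 4.71 and 1.91) is 2nd from the top in both. LysCTT (blue, 2.44 and 0.04) lies in the lower and the middle part.

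Among the tested genes in RIP, 3 of 4 LysTTT and 1 of 3 LysCTT genes were called higher, beside 33.0% of all rows. chr1.tRNA485-LysTTT had 41 and 56 counts in the inputs and 167 and 129 in hm5C RIP, a rise of 2.88 on the log2 scale (SE 0.40). chr13.tRNA83-LysTTT had 61 and 64 against 94 and 143 counts (2.09, SE 0.27) and chr7.tRNA1280-LysTTT 44 and 43 against 75 and 40 (1.70, SE 0.51). Without single libraries the value for chr7.tRNA1280-LysTTT ran from 0.67 to 2.25, and its call was lost without either input or hm5C RIP replicate 1, which left 2 LysTTT genes called, and with no filter (1.02). chr13.tRNA1012-LysTTT, with 46 and 39 against 23 and 36 counts, had a log2 change of 0.63 (adjusted p 0.208). The called LysCTT gene, chr13.tRNA103-LysCTT, changed by 0.83 (edgeR adjusted p 0.0388), a call lost without either input library or hm5C RIP replicate 1 and with DESeq2's Wald test, while 2 LysCTT genes were called without hm5C RIP replicate 2. The most counted LysCTT genes, chr12.tRNA796-LysCTT and chr17.tRNA999-LysCTT, had log2 values of 0.10 and -0.01. chr5.tRNA1628-LysCTT, which did not pass the filter, had 17 counts in hm5C RIP replicate 1 and 0 in replicate 2.

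Fragments of both anticodons were plentiful in all 12 small RNA libraries, with different makeups. LysCTT made up 6.10% to 12.9% and LysTTT 1.30% to 5.94% of all tRNA fragment counts in a library. LysCTT fragments were nearly all tRF5, with means of 99.2% (WT) and 98.7% (Tet2 KO) in experiment 1 and 99.5% (E14) and 99.4% (Tet2 KO) in experiment 2. For LysTTT the tRF5 share was 70.3% ± 11.1 in WT, 61.3% ± 3.39 in the knockout of experiment 1, 93.5% ± 0.48 in E14 and 91.2% ± 1.32 in the knockout of experiment 2 (SD, n = 3 each). In each of the 12 libraries LysCTT had more tRF5 counts than LysTTT, and LysTTT had more tRF3a and more tRF3b counts than LysCTT.

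The counts of tRF3b were far apart in the 2 experiments. LysTTT tRF3b counts ran from 784 to 1837 in experiment 1 and from 29 to 44 in experiment 2, and LysCTT tRF3b counts from 48 to 161 and from 1 to 5. LysTTT tRF3a counts, 118 to 911 and 91 to 172, and LysCTT tRF3a counts, 8 to 72 and 24 to 59, overlapped. Kit and cells differ as well, and these levels were not tested between the experiments.

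In experiment 1, tRF3a of LysCTT was lower in the knockout, and tRF3a of LysTTT just missed the threshold. In bulk cultures a change in the makeup of cells and a change per cell cannot be told apart. LysCTT tRF3a had 72, 52 and 69 counts in WT and 17, 11 and 8 in the knockout. All 3 knockout libraries lay below all 3 WT libraries, and such separation was not counted over other features. Its log2 change was -2.87 (SE 0.29, edgeR adjusted p 1.98e-06), 42nd of 44 isoacceptors from the highest, beside a median of 0.32 for tRF3a sums. LysTTT tRF3a had 249, 911 and 884 counts in WT and 374, 222 and 118 in the knockout, so WT replicate 1 fell among the knockout libraries. The log2 change was -1.99 (SE 0.59, edgeR adjusted p 0.0505), and without WT replicate 1 it was -2.35 (adjusted p 6.69e-07). Of all features in the summed fit, 20.7% were called lower and 25.9% higher.

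tRF3b did not fall with tRF3a. LysCTT tRF3b had 51, 80 and 48 counts in WT and 161, 145 and 107 in the knockout, a rise of 0.77 in log2 (SE 0.22, edgeR adjusted p 0.00882; 0.0546 without WT replicate 3), 2nd of 45 isoacceptors. LysTTT tRF3b had 784, 1365 and 916 counts in WT and 1837, 1490 and 1365 in the knockout, with a log2 value of 0.20 (adjusted p 0.355). As a description made after the values were seen, the count of tRF3a per tRF3b was 1.41, 0.65 and 1.44 for LysCTT in WT against 0.106, 0.0759 and 0.0748 in the knockout. For LysTTT it was 0.318, 0.667 and 0.965 against 0.204, 0.149 and 0.0864. Neither pair of groups overlapped in experiment 1. In experiment 2 the LysTTT ratio went the other way, 2.52, 3.34 and 2.84 in E14 against 5.17, 3.52 and 5.38 in the knockout. The LysCTT ratio overlapped there, 17.3, 35.0 and 8.0 against 29.5, 10.4 and 56.0. This ratio was not computed for other isoacceptors.

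tRF5 counts of LysTTT were 4432, 3260 and 4417 in WT and 3943, 2837 and 2010 in the knockout of experiment 1, or -0.94 in log2 (SE 0.24, edgeR adjusted p 0.00454). This call depended on scaling, as library size alone gave -0.40 (adjusted p 0.187), and also on knockout replicate 3, without which adjusted p was 0.0508. As a percent of all fragment counts the groups overlapped, with WT at 2.68 to 4.22 and the knockout at 2.09 to 2.86. LysCTT tRF5 counts were 21187, 12836 and 12163 against 12442, 11453 and 11051, with a log2 value of -0.83 (SE 0.38, adjusted p 0.0739), and without WT replicate 1 it was -0.46 (adjusted p 0.0212). The median of tRF5 isoacceptor sums was -0.55, so neither anticodon lay far below it.

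**Figure D3:**
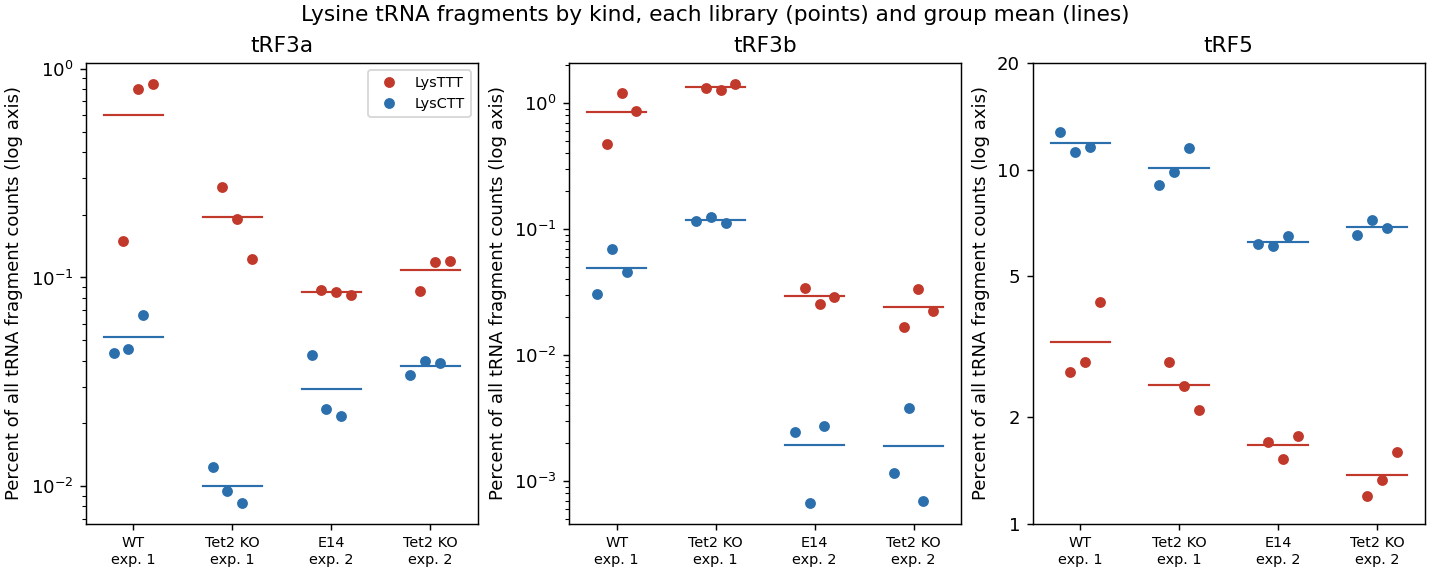
Lysine tRNA fragments of 3 kinds as a percent of all tRNA fragment counts of a library (vertical log axes, which differ between panels), for 3 libraries of each group (points) with the group mean (line), LysTTT in red and LysCTT in blue. LysTTT lies above LysCTT for tRF3a and tRF3b and below it for tRF5 in all 12 libraries, and tRF3a of LysCTT is lowest in the knockout of experiment 1.

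In experiment 2, no lysine sum passed the threshold, where 11.4% of summed features were called in either direction. LysCTT tRF3a had 52, 35 and 24 counts in E14 and 59, 52 and 56 in the knockout (log2 0.12, SE 0.24), and LysTTT tRF3a 106, 127 and 91 against 150, 155 and 172 (0.08, SE 0.21). LysTTT tRF5 had 2079, 2260 and 1957 counts in E14 and 2083, 1729 and 2296 in the knockout, a log2 value of -0.53 (SE 0.20, edgeR adjusted p 0.109). It passed the threshold without E14 replicate 1 (-0.63, adjusted p 0.0426) or knockout replicate 3 (-0.71, adjusted p 0.00818). LysCTT tRF5, with 7520, 9035 and 7164 against 11374, 9429 and 9876 counts, had a log2 value of -0.13, which turned to 0.14 with library size alone. LysTTT tRF3b had a log2 value of -0.58 (adjusted p 0.134), and LysCTT tRF3b, with 7 counts in E14 and 8 in the knockout, was too scarce to test.

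The difference between the experiments was itself tested. The tRF3a changes differed, by 3.03 (edgeR adjusted p 4.08e-05) for LysCTT and 2.09 (adjusted p 0.0154) for LysTTT, experiment 2 minus experiment 1, where 15.3% of summed features and 2.58% of single rows were called in that direction. The LysTTT difference was 1.44 without WT replicate 2 (adjusted p 0.0507) and 1.51 without knockout replicate 3 of experiment 1 (adjusted p 0.0606). For tRF3a, a mean over both experiments therefore describes neither of them. LysCTT tRF3a changed by -2.87 in experiment 1 and 0.12 in experiment 2, and LysTTT tRF3a by -1.99 and 0.08. Averaged over both experiments, LysCTT tRF3a changed by -1.36 (SE 0.20, edgeR adjusted p 6.89e-05). LysTTT tRF3a changed by -0.93 (SE 0.26, edgeR adjusted p 0.0113) and LysTTT tRF5 by -0.72 (SE 0.15, edgeR adjusted p 0.00205), where 19.0% of summed features were called lower. With library size alone the last pair gave -0.63 (adjusted p 0.118) and -0.34 (adjusted p 0.0659). LysTTT tRF3a also lost its call without WT replicate 2, knockout replicate 2 or 3 of experiment 1, or E14 replicate 2 (adjusted p 0.0543 to 0.0734). With replicate number as a block, LysTTT tRF3a was not called over both experiments (-0.90, edgeR adjusted p 0.0793) or for their difference (2.03, edgeR adjusted p 0.0814).

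By single row, 24 LysTTT and 16 LysCTT fragment rows were tested in experiment 1. All 6 tested tRF3a rows and 6 of 9 tested tRF5 rows of LysTTT were lower, beside 16.7% of all rows, and none was higher. Copies can share reads, so these rows are not separate results. The 6 tRF3a rows had similar totals, 525 to 656 counts over 12 libraries, and summed LysTTT tRF3a was not called (edgeR adjusted p 0.0505). The largest falls were tRF3a of chr13.tRNA1012-LysTTT at -2.23 (SE 0.41) and tRF5 of chr1.tRNA485-LysTTT at -1.31 (SE 0.29). Of the 4 LysTTT genes tested in RIP, this last and chr13.tRNA1012-LysTTT (-1.10) had tRF5 rows called lower, and chr7.tRNA1280-LysTTT and chr13.tRNA83-LysTTT had log2 values of -0.23 and -0.05. For LysCTT, tRF3b of chr9.tRNA1035-LysCTT was the only row called, at 1.29 (edgeR adjusted p 0.0386, 21.2% of all rows called higher), no tRF3a row passed the filter, and 9 tRF5 rows had values from -0.87 to -0.35. These counts rested on single libraries: 2 LysTTT rows were lower without knockout replicate 2 and 3 without knockout replicate 3, and 8 LysCTT rows were lower without WT replicate 1.

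In experiment 2, 16 LysTTT and 9 LysCTT rows were tested and edgeR called 0 of them, beside 5.42% of all rows lower and 9.64% higher. At an unadjusted p under 0.05 there were 5 LysTTT rows and 0 LysCTT rows, and DESeq2's Wald test called 5 LysTTT rows lower, as edgeR did without E14 replicate 1 or knockout replicate 3. The 9 LysCTT tRF5 rows lay between -0.05 and 0.09, and the 9 LysTTT ones between -0.46 and 0.78. Over both experiments 6 LysTTT rows were lower (7.88% of all rows), 5 of them tRF5, and no LysCTT row was called. Without WT replicate 1 there were 12 LysTTT rows.

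**Figure D4:**
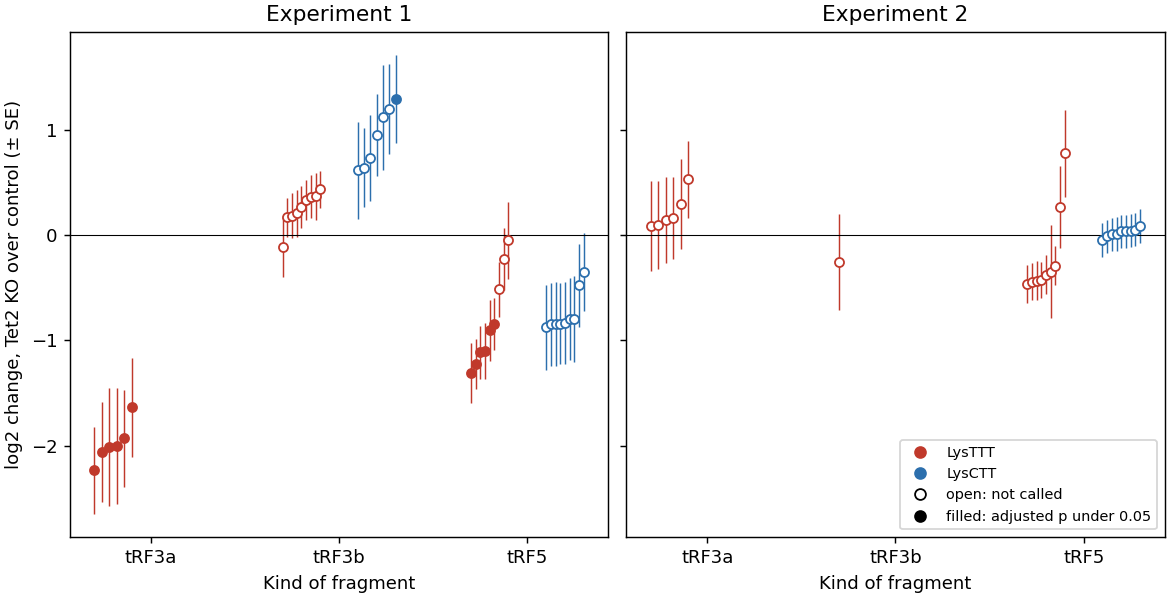
Log2 change in the knockout against control cells (vertical axis, ± SE) of each tested lysine fragment row, by kind (horizontal axis), in experiment 1 (left) and experiment 2 (right), with LysTTT in red and LysCTT in blue. Filled points passed an adjusted p of 0.05; tRF3a of LysTTT lies between -2.23 and -1.63 in experiment 1 and between 0.09 and 0.53 in experiment 2.

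The ratio of LysTTT to LysCTT fragments did not pass the threshold for any kind when labels were permuted within the experiments. The knockout minus control difference of the log2 ratio was -0.18 over all kinds (p = 0.365, exact permutation), 0.45 for tRF3a (p = 0.355, exact), -0.37 for tRF3b (p = 0.26, exact) and -0.28 for tRF5 (p = 0.135, exact), with n = 6 each, and adjusted p over the 12 ratio and share tests was 0.27 to 0.395. Without single libraries these differences ran from -0.32 to -0.07, 0.09 to 0.68, -0.56 to -0.16 and -0.38 to -0.18, and none passed the threshold. Within experiment 1 the tRF3b ratio differed by -0.57. Within experiment 2 the tRF5 ratio differed by -0.42 and the ratio over all kinds by -0.39. Each gave p = 0.1, the smallest an exact test of 3 against 3 can give. Of the shares of the 3 kinds, the one with the lowest p was tRF3b in LysTTT, which went from 17.9% ± 5.84 to 33.9% ± 4.72 in experiment 1 and was 1.66% ± 0.19 and 1.61% ± 0.58 in experiment 2 (SD, n = 3 each; p = 0.055 by exact permutation over both experiments, adjusted 0.18).

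The most counted genes of CLIP and RIP were largely shared, but many genes with high tRF5 counts had few or no counts in either. Of 9 LysCTT genes with over 1000 tRF5 counts over 12 libraries, 6 had 0 counts in CLIP and 5 had 3 or fewer in RIP, and of 8 such LysTTT genes 4 had 0 in CLIP and 4 had 3 or fewer in RIP. chr16.tRNA267-LysCTT, recovered in CLIP with 56 counts in all, had 3 counts in RIP, 39 tRF3a, 0 tRF3b and 2 tRF5 counts. chr17.tRNA999-LysCTT and chr12.tRNA796-LysCTT were the most counted LysCTT genes in CLIP (379 and 116) and in RIP (813 and 1278). chr17.tRNA999-LysCTT had 16075 tRF5 counts. For LysTTT, chr7.tRNA1280, chr13.tRNA1012, chr13.tRNA83 and chr1.tRNA485 led both, with 30, 28, 24 and 11 counts in CLIP and 202, 144, 362 and 393 in RIP. Near-identical copies can share reads: 7 LysCTT genes had between 16022 and 16514 tRF5 counts each, and chr9.tRNA1035-LysCTT and chr12.tRNA796-LysCTT had 11152 and 10956. Values of single genes are therefore uncertain, and rows of 1 anticodon are not independent.

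**Figure D5:**
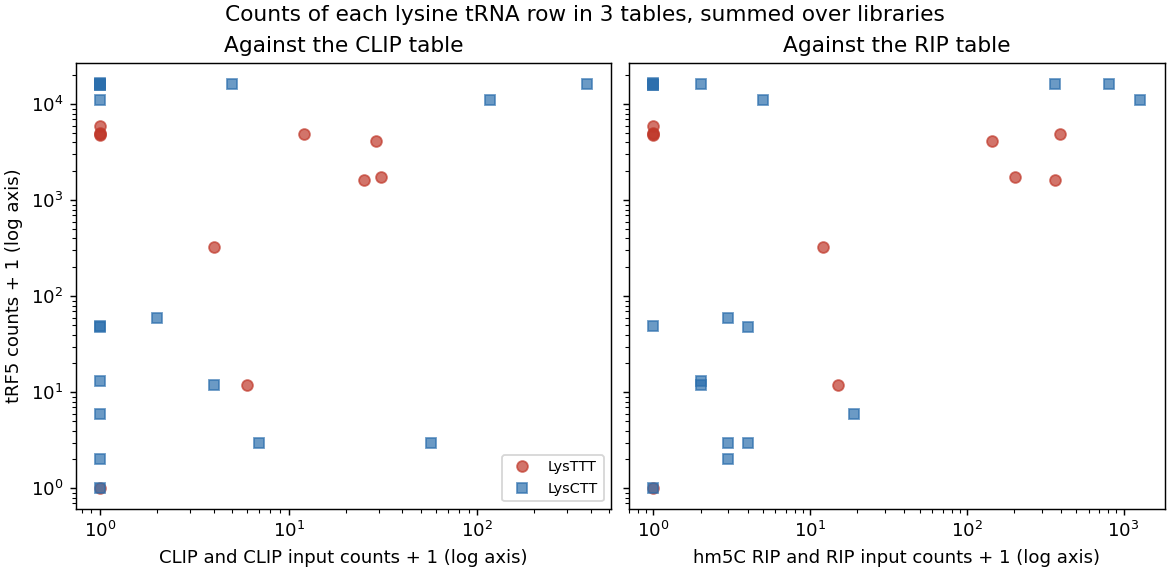
Counts of each lysine tRNA gene summed over libraries, tRF5 (vertical log axis, counts + 1) against the CLIP table (left) and the RIP table (right; horizontal log axes, counts + 1), LysTTT as red circles and LysCTT as blue squares. Genes at the left edge had 0 counts in CLIP or RIP, among them 6 LysCTT and 4 LysTTT genes with over 1000 tRF5 counts in the CLIP panel.

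The isoacceptors most like the lysine tRNAs are given by Pearson's r of log2 CPM over libraries, a description in which the libraries' groups are shared by all. In CLIP (8 libraries) LysTTT was nearest to GlyTCC (r = 0.99) and ArgCCT (0.99), and LysCTT to MetCAT (0.98) and AlaAGC (0.98). In RIP (4 libraries) LysTTT was nearest to TrpCCA (0.99) and TyrGTA (0.98), and LysCTT to ArgTCT (0.85). Over 12 small RNA libraries, LysCTT tRF3a was nearest to tRF3a of AsnGTT (0.92) and GlyGCC (0.92), LysTTT tRF3a to tRF5 of AsnGTT (0.80), and both tRF3b sums to tRF3b of other tRNAs, SerGCT (0.99) for LysTTT and ProAGG (0.98) for LysCTT.

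A list of 49 genes of general tRNA biology, called pathway genes below, gave no common direction in CLIP. Most make, modify, charge, cut, export or use tRNAs, and some do not act on lysine tRNAs. Of 37 tested, 3 were higher and 2 lower, with a median log2 change of -0.09 beside -0.03 for all rows, of which 8.99% were higher and 5.83% lower. Without TET2 CLIP replicate 1 of clone 65 there was 1 higher, and leaving out single libraries gave 1 to 4 lower. Rpph1, the RNA of RNase P, which trims 5′ leaders, rose from 205 ± 27.2 to 1379 ± 671 CPM (SD, n = 4 each; log2 2.61), and Elac2, which cuts 3′ trailers, and Dicer1 rose by 0.89 and 0.66. Eef1a1, which brings charged tRNAs to the ribosome, fell by 0.77 (SE 0.13, edgeR adjusted p 5.90e-05). Nfs1, a sulfur donor for tRNA thiolation, fell by 1.84 (SE 0.60, edgeR adjusted p 0.0355), at only 4.69 ± 4.24 CPM in TET2 CLIP (SD, n = 4). Nfs1 and Elac2 (edgeR adjusted p 0.0286 over both clones) were called in neither clone alone, and Dicer1 in clone 65 only. Kars, the lysyl-tRNA synthetase gene, had a log2 value of -0.87 (edgeR adjusted p 0.0887). In RIP only 6 were tested, and genes scarce in input passed the filter only through hm5C RIP (Ctu2 at 0.59 and Elp3 at 0.56 CPM in input), so their calls describe those genes alone: the thiolation gene Ctu2 (log2 5.54), the Elongator gene Elp3 (2.66) and the methyltransferase gene Trmt1 (2.44) were higher and Rpph1 was lower (-1.35), beside 33.0% and 18.9% of all rows. The mitochondrial lysine tRNA gene mt-Tk, which is not a member, had 0 counts in all CLIP and RIP libraries.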

How the data were processed

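The authors deposited raw read counts per gene (CLIP and RIP) and per tRNA gene and fragment kind, whole numbers with differing column sums. Bowtie2 2.2.6, STAR 2.5.3a, cutadapt and UMI-tools are named with build mm10 per the submitters' processing notes. The role of each, the counting of reads shared by tRNA copies, the use of strand and the fragment definitions are not given in the sources used here. Counts were fitted over all rows with edgeR 4.0.16 (R 4.3.3: TMM, filterByExpr, robust quasi-likelihood F-test, Benjamini-Hochberg, threshold 0.05), as single rows and with tRNA rows summed by isoacceptor and kind. CLIP was fitted over 8 libraries, RIP over 4, fragments over 6 per experiment and over 12 for both experiments and their difference. CPM are scaled by library size and TMM factor; values so named are scaled by library size alone. Ratios used 0.5 added to each count. Intervals are exact (SciPy 1.17.1) and cover counting error only; read counts are not shown to be independent molecules. Groups follow the labels, and replicates are biological per the design text. The 18 replicate pairs differed by more than counting error (chi-square over its degrees of freedom 1.82 to 35.5). The largest values, 33.6 and 35.5, were those of WT replicate 1 of experiment 1 with the other WT libraries, against 3.29 between these. The pairs of RIP input and hm5C RIP had 26.4 and 22.5. Named were, per anticodon (and kind), up to 6 tested rows (3 for fragments) of highest mean CPM and up to 6 called rows per direction, up to 5 like isoacceptors and up to 8 called pathway genes; the text gives those that bear on a comparison, and chr5.tRNA1628-LysCTT was chosen after its values were seen. Members, lists and tests were chosen with earlier results of these data known. Fits were checked on simulated counts. Alternatives were DESeq2 1.42.0 (size factors and Wald test), library size alone, no filter, RIP without Acsl6, a replicate block, other pseudocounts and rows, and leaving out each library.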

Additional observations from a re-analysis of the deposited data

Results flagged for a closer look

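Changes of lysine tRF3a differed between the small RNA experiments by a test of the difference itself (edgeR, experiment 2 minus experiment 1). The difference was 3.03 for summed LysCTT, 2.09 for summed LysTTT and 1.92 for the row chr13.tRNA1012-LysTTT (edgeR adjusted p 0.0181), the last beside 2.58% of all rows called in that direction. Kit, control cells and knockout set differ together between the experiments and cannot be told apart. The row lost its call with library size alone and without WT replicate 2 or knockout replicate 3 of experiment 1, and the LysTTT rows called in that direction ran from 0 to 8 without single libraries, with 8 without WT replicate 1.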

How the results depend on the processing

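Both lysine sums in TET2 CLIP and LysTTT in hm5C RIP kept direction under all alternatives run, and their calls where all libraries were kept. LysTTT, scarce in every CLIP input, passed the count filter only through TET2 CLIP, so its kept call only describes this sum. LysCTT in RIP was not called in the main analysis and changed sign with no filter (-0.44) and without single libraries (-0.22 to 0.29), and was 1.68 (called) without Acsl6 and with library size alone; chr17.tRNA999-LysCTT then turned from -0.01 to 1.48. The log2 ratio in CLIP stayed at 2.44 when permuted within clones (p = 0.0556, exact) or with sign flips, the replicate block for ratios (p = 0.125, exact), and lay between 2.11 and 2.86 without single libraries (p = 0.0571, exact permutation), in each case the smallest p that so few labels allow. In experiment 1, LysTTT tRF3a passed the threshold with DESeq2 size factors (-1.98), library size alone (-1.61), no filter (-2.01) and DESeq2's Wald test (-1.98), LysCTT tRF5 with the Wald test (-0.82), and LysTTT tRF5 lost its call with library size alone (-0.40). That scaling moved the median of all rows from 0.04 to 0.50 and the split from 127 higher and 100 lower to 166 and 51. Over both experiments LysTTT tRF3a lost its call with library size alone (-0.63) and the replicate block (-0.90, adjusted p 0.0793), and LysTTT tRF5 with library size alone (-0.34). The cause of these changes was not tested.

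Without single libraries, log2 values ran from 0.60 to 1.00 for LysCTT tRF3b, -1.03 to -0.46 for LysCTT tRF5, -2.35 to -1.75 for LysTTT tRF3a and -1.09 to -0.80 for LysTTT tRF5 in experiment 1, from -0.71 to -0.37 for LysTTT tRF5 in experiment 2, and from -0.56 to -0.23 for LysCTT tRF5 and -1.10 to -0.68 for LysTTT tRF3a over both. Knockout minus control shares ran, in percentage points, from 0.33 to 0.42 (LysCTT tRF3b), 6.67 to 9.65 (LysTTT tRF3b), -0.30 to -0.17 (LysCTT tRF5) and -8.54 to -2.99 (LysTTT tRF5).

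Counts of called rows moved by over 1.5 times as follows. With no filter there were 5 LysTTT genes higher in clone 65, 1 LysTTT and 3 LysCTT fragment rows higher and 6 and 7 lower in experiment 1, 10 LysTTT and 2 LysCTT rows lower over both experiments, and 1 pathway gene higher and 7 lower. With library size alone there were 7 LysTTT rows lower and 4 LysCTT rows higher in experiment 1, 3 LysTTT rows lower over both and 4 pathway genes lower. With DESeq2's Wald test there were 0 LysCTT genes higher in RIP, 0 LysCTT rows higher and 7 lower in experiment 1, 5 LysTTT rows lower in experiment 2 and 1 pathway gene lower. DESeq2 size factors gave 0 LysCTT rows higher in experiment 1 and 5 LysTTT rows lower in experiment 2. Without Acsl6, RIP gave 0 LysCTT genes higher with TMM and 3 with library size alone. Without single libraries, LysCTT genes higher ran from 0 to 3 in clone 75 and from 0 to 2 in RIP, LysTTT genes higher from 1 to 3 in clone 65 and from 0 to 1 in clone 75, LysCTT rows from 0 to 3 higher and 0 to 8 lower and LysTTT rows from 0 to 2 higher and 2 to 12 lower in experiment 1, LysTTT rows lower from 0 to 5 in experiment 2 and 6 to 12 over both, and pathway genes from 1 to 3 higher and 1 to 4 lower.

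Deviations of same-numbered libraries correlated at -0.01 and 0.02 in CLIP, 0.04 in RIP and -0.20 to 0.18 in the fragments. In experiment 2, replicates 1 and 3 (0.11 and 0.18) lay above the best other number (0.02 and 0.07), and replicate 2 (-0.11) below it (0.16). Counting noise in shallow libraries can hide pairing, so these values do not settle whether replicate numbers pair the samples. With the replicate block there were 1 LysCTT gene higher in clone 75, 0 in RIP and 0 LysCTT rows higher in experiment 1, 3 LysTTT rows lower in experiment 2 and 1 pathway gene lower, and the difference between experiments lost its call for summed LysTTT tRF3a (2.03, edgeR adjusted p 0.0814) and the tRF3a row of chr13.tRNA1012-LysTTT (1.78). The depth of 1 to 10 LysTTT counts per CLIP input limits its fold more than that of LysCTT. Fits that left 1 library in a CLIP or RIP group assume that it varies like the other groups.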
